A study of Mus musculus with 15 samples.

Results

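The imprinted fetal growth loci are 10 genes, H19, Igf2, Kcnq1ot1, Cdkn1c, Dlk1, Meg3, Rian, Mirg, Igf2r and Grb10, chosen by name and read as 4 fixed windows of the mm9 genome. The windows hold 915 bins of 2 kb out of 1236182 on the 19 autosomes. H19, Igf2, Kcnq1ot1 and Cdkn1c share chr7:149700001-150750000 (1050 kb, 525 bins), and Dlk1, Meg3, Rian and Mirg share chr12:110620001-111000000 (380 kb, 190 bins). Igf2r lies in chr17:12800001-13000000 and Grb10 in chr11:11780001-11980000, 100 bins each. Members of 1 window share every value given for it. The gene annotation at hand is of another build (GRCm38.p6), so genes, exons and promoters were not placed inside the windows, and only the order of the genes was taken from it.

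Hepatocytes were profiled by srHC-seq in 15 samples, 5 labelled as replicates in each group. In this assay crosslinked chromatin is sonicated, and the long fragments, which resisted sonication, are sequenced apart from the short ones. The reference was wild type at an age of 14 days (P14), with 3 samples from males and 2 from females. P14 mice of genotype Alb-Cre;Ezh1-/-;Ezh2f/f (2 male and 3 female samples) carry a germline null of Ezh1 and lose Ezh2 where Cre is driven by the albumin promoter, which acts in hepatocytes. The last group was wild type at 2 months, with 2 male and 3 female samples. Whether the wild-type mice carried Cre or floxed alleles is not given in the sources used here. Cells were isolated by perfusing the liver, and no marker could be used to check their type, since genes were not placed in the maps.

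The 5 samples of a group share 1 map, taken here to be pooled. It gives every 2 kb bin 1 of 3 classes, which are closed (het), intermediate (int) and open (euch). The deposited lists hold a score of 0 throughout and no reads, so the depth behind a call is unknown. There is no replicate to test a difference against, and every difference below is a description of 3 maps. Both comparisons use the same P14 wild-type map. Maternal and paternal alleles were not told apart.

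Imprinted genes are expressed from only the maternal or only the paternal allele, as set by DNA methylation laid down in the germ line at imprinting control regions. Many of them set fetal growth, are active in fetal liver, and are shut down in that organ after birth. Ezh1 and Ezh2 are the catalytic subunits of PRC2, which methylates lysine 27 of histone H3 and is known to act at several imprinted clusters.

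Igf2 encodes a fetal growth factor and is expressed from the paternal allele. H19, a maternally expressed lncRNA, shares enhancers and a control region with it. Kcnq1ot1 is a paternally expressed lncRNA that silences its neighbours, among them Cdkn1c, which encodes an inhibitor of cyclin-dependent kinases. Dlk1 encodes a transmembrane protein of the Notch ligand family. Meg3, Rian and Mirg are maternally expressed lncRNAs, of which Rian carries C/D snoRNAs and Mirg carries miRNAs. Igf2r encodes the receptor that clears Igf2 and is silenced on the paternal allele by Airn, an overlapping lncRNA, and Grb10 encodes an adaptor that dampens insulin and growth factor signalling.

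Promoters are shown because they differ widely in CpG, the dinucleotide methylated at imprinting control regions. The RefSeq promoter table (GRCm38.p6) held 13 transcription starts of 8 of the 10 members; H19 and Cdkn1c were not matched. In the 250 bases before each start the members held from 0 to 40 CG dinucleotides, with a median of 8, against a median of 6 over all 32851 promoters of the table (quartiles 2 and 16). For each window the member promoter with the most CG is printed 5′ to 3′ on its own strand, with CG in capitals. It has 22 CG for start 3 of Igf2 (chr7:142658805-142659054, minus strand) and 10 for start 1 of Meg3 (chr12:109540746-109540995, plus strand), a count that Mirg shares. It has 27 for Igf2r (chr17:12769707-12769956, minus strand) and 40 for start 1 of Grb10 (chr11:12037421-12037670, minus strand). These positions are of GRCm38.p6 and must not be read on the mm9 maps.
Igf2: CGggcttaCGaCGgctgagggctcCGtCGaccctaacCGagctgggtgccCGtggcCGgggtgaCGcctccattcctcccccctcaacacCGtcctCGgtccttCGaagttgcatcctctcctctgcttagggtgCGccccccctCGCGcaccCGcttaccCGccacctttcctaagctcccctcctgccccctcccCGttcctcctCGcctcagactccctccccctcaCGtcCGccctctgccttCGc
Meg3: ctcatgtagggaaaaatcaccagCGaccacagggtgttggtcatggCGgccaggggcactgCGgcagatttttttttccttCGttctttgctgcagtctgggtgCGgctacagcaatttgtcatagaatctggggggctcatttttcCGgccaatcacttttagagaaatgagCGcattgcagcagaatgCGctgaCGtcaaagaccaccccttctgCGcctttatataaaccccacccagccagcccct
Igf2r: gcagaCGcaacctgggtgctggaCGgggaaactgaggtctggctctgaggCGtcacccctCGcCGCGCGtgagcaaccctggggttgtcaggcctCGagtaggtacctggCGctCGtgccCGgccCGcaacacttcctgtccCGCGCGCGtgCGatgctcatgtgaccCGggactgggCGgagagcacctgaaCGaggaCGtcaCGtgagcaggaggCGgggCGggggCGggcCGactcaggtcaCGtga
Grb10: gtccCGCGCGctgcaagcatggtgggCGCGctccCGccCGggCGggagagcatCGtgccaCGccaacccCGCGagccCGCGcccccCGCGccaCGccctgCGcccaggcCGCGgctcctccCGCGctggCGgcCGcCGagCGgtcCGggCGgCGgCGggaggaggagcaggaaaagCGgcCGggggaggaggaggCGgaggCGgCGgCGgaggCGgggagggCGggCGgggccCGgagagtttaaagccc

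Grb10 had more CG than 98.7% of all promoters in the table, Igf2r more than 91.4%, Igf2 more than 85.2% and Meg3 more than 62.2%. The single start of Rian and start 2 of Meg3 had no CG in these 250 bases. CG-rich and CG-poor promoters both occur among the members, and within the chromosome 12 window no member start passed 10.

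The chromosome 7 and 12 clusters also carry miRNAs, shown here to make plain what else a call in these windows covers. In RefSeq, 57 hairpins lie between the start of Meg3 and the end of Mirg, 10 of them inside Mirg and 3 inside Rian, and they give 111 distinct mature sequences. Among these, 9 seeds (bases 2 to 8) were shared by more than 1 mature miRNA, 18 in all. A pair with a shared seed from that cluster and both arms of miR-675, which is cut from H19 itself, are printed with the seed in capitals.
miR-675-5p: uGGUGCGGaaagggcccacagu
miR-675-3p: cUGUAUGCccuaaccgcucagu
miR-379-3p: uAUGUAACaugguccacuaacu
miR-411-3p: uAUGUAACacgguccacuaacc

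Read together, the 4 windows held more euch and less het in the knockout than in the wild type of the same age. Of the 915 bins, 464 were euch in the wild type of P14, 515 in the knockout and 481 in the wild type of 2 months. Het bins numbered 389, 321 and 357 in the same order. The openness score, which is the euch share minus the het share and lies between -1 (all het) and 1 (all euch), was 0.082, 0.212 and 0.136. On all autosomes the same score hardly differed between maps, at -0.027, -0.036 and -0.032. The chromosome 7 window has 525 of the 915 bins and so weighs most in the totals. Its euch bins numbered 246 in P14 wild type and 281 in the knockout. Those of the chromosome 12 window numbered 57 and 71, and those of Grb10 95 and 100. Igf2r went the other way, with 66 and 63.

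**Figure D1:**
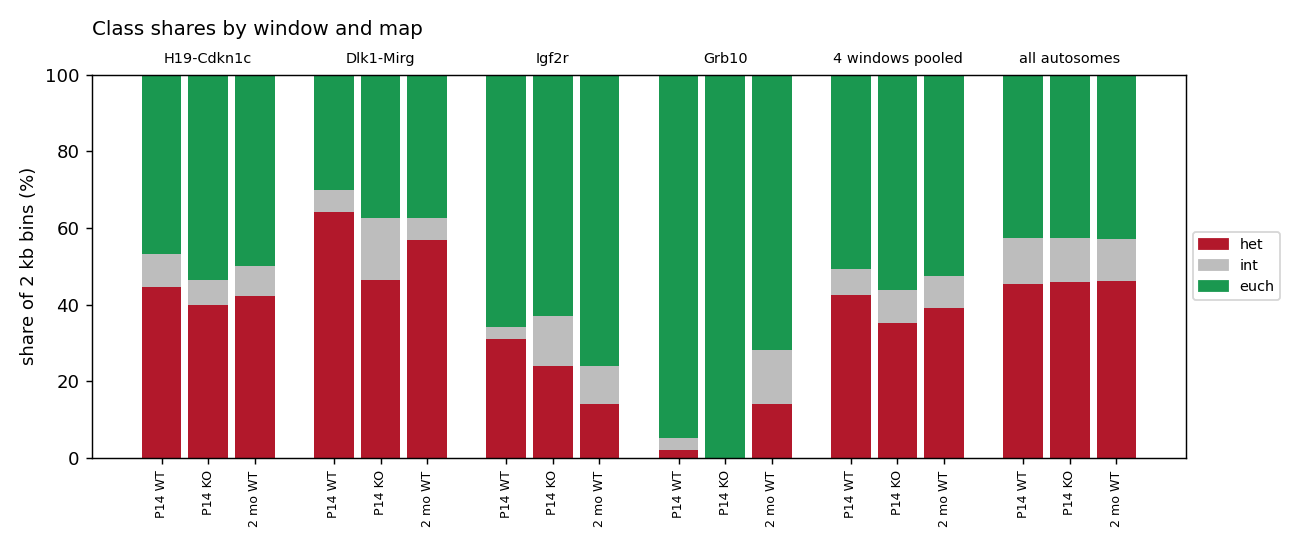
Share of 2 kb bins (percent, vertical axis) called het, int or euch in each of the 3 maps, for each window, the 4 windows pooled and all autosomes; WT is wild type, KO is the Ezh1 and Ezh2 knockout, and each bar is 1 pooled map with no error. The Grb10 window is euch throughout in the knockout, and the Dlk1-Mirg window has the largest het share of the 4 in each map.

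In the knockout, calls that differed were mostly on the open side. Of the 915 bins, 135 (14.8%) were called more open than in P14 wild type, where 12.1% of all autosomal bins were, and 42 (4.59%) were called more closed, against 12.5%. The share called more open was near the autosomal share, and the share called more closed was below it. Of the 464 bins that were euch in P14 wild type, 429 (92.5%) were euch in the knockout, compared with 79.9% of autosomal euch bins. Of the 389 het bins, 294 (75.6%) were het in the knockout, compared with 80.6%. With age the moves of the 4 windows were close to the autosomal level. Here 145 bins (15.8%) were more open at 2 months, against 13.6%, and 105 (11.5%) were more closed, against 13.7%. Neighbouring bins are not independent, so these counts carry no interval.

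No single window differed between maps by more than the usual range of the autosomes. Each was set beside all autosomal stretches of its own length, of which there were 2277 for 1050 kb, 6307 for 380 kb and 11984 for 200 kb. All 8 differences of score, 4 windows in 2 comparisons, lay between the 5th and the 95th percentile of those stretches. This holds for differences only. The score of Grb10 itself was 0.93 in P14 wild type and 1.0 in the knockout, above the 95th percentiles of 0.90 and 0.93. In the knockout all 4 windows had a higher score than in the wild type, and 1 of them, Dlk1-Mirg, lay above the upper quartile. Most flanks of the windows, given below, were also higher in the knockout. Between the ages, Igf2r lay above the upper quartile and Grb10 below the lower. With windows widened by 50 kb on both sides, these differences were 0.18 and -0.207. Those values lie inside the quartiles of the 200 kb stretches, 0.24 and -0.22, though no stretches of the widened length were cut. Both placings thus depend on the window edges.

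**Figure D2:**
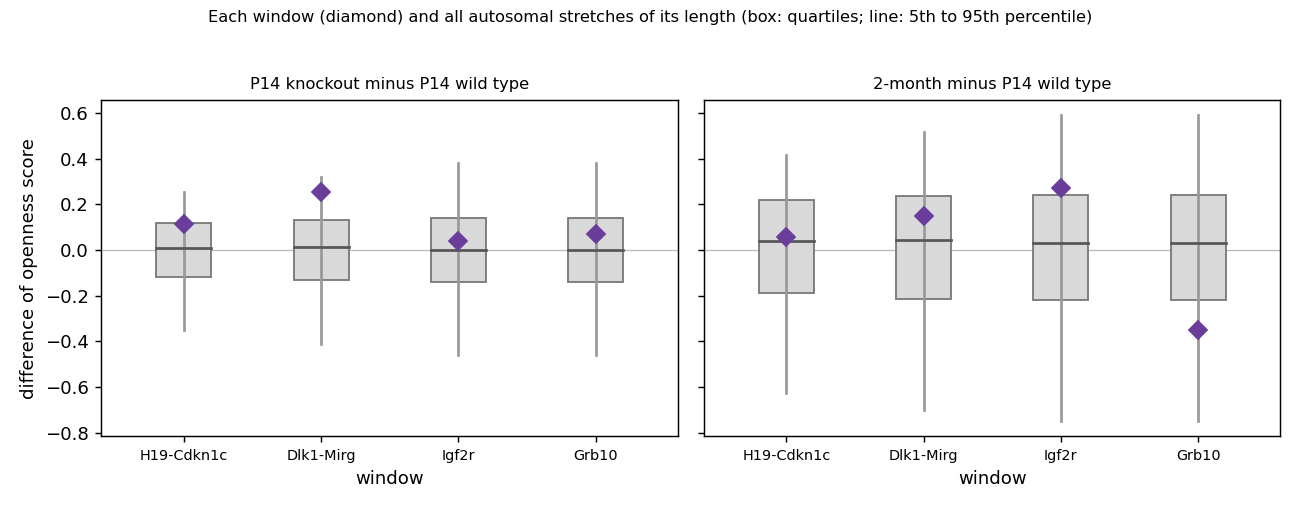
Difference of openness score (vertical axis, no unit) between the knockout and the wild type of P14 (left) and between 2-month and P14 wild type (right); diamonds are the 4 windows, boxes and lines the quartiles and the 5th to 95th percentile of all autosomal stretches of the same length. Every diamond lies within its line, and all 4 are above 0 on the left.

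In the window of the growth factor Igf2, the H19 end had less euch at 2 months than at P14, and the remainder had more. RefSeq orders the genes of this stretch from low to high coordinates as H19, Igf2, Ins2, Th, Ascl2, Tspan32, Cd81, Tssc4, Trpm5, Kcnq1, Kcnq1ot1 and Cdkn1c. H19 and Igf2 therefore lie towards the low end and Kcnq1ot1 and Cdkn1c towards the high end. The whole window was balanced at P14, with 492 kb euch and 468 kb het in the wild type, and had 562 and 418 kb in the knockout and 524 and 442 kb at 2 months. Its score was 0.023 in P14 wild type, 0.137 in the knockout and 0.078 at 2 months. These totals combine opposite differences within the window.

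**Figure D3:**
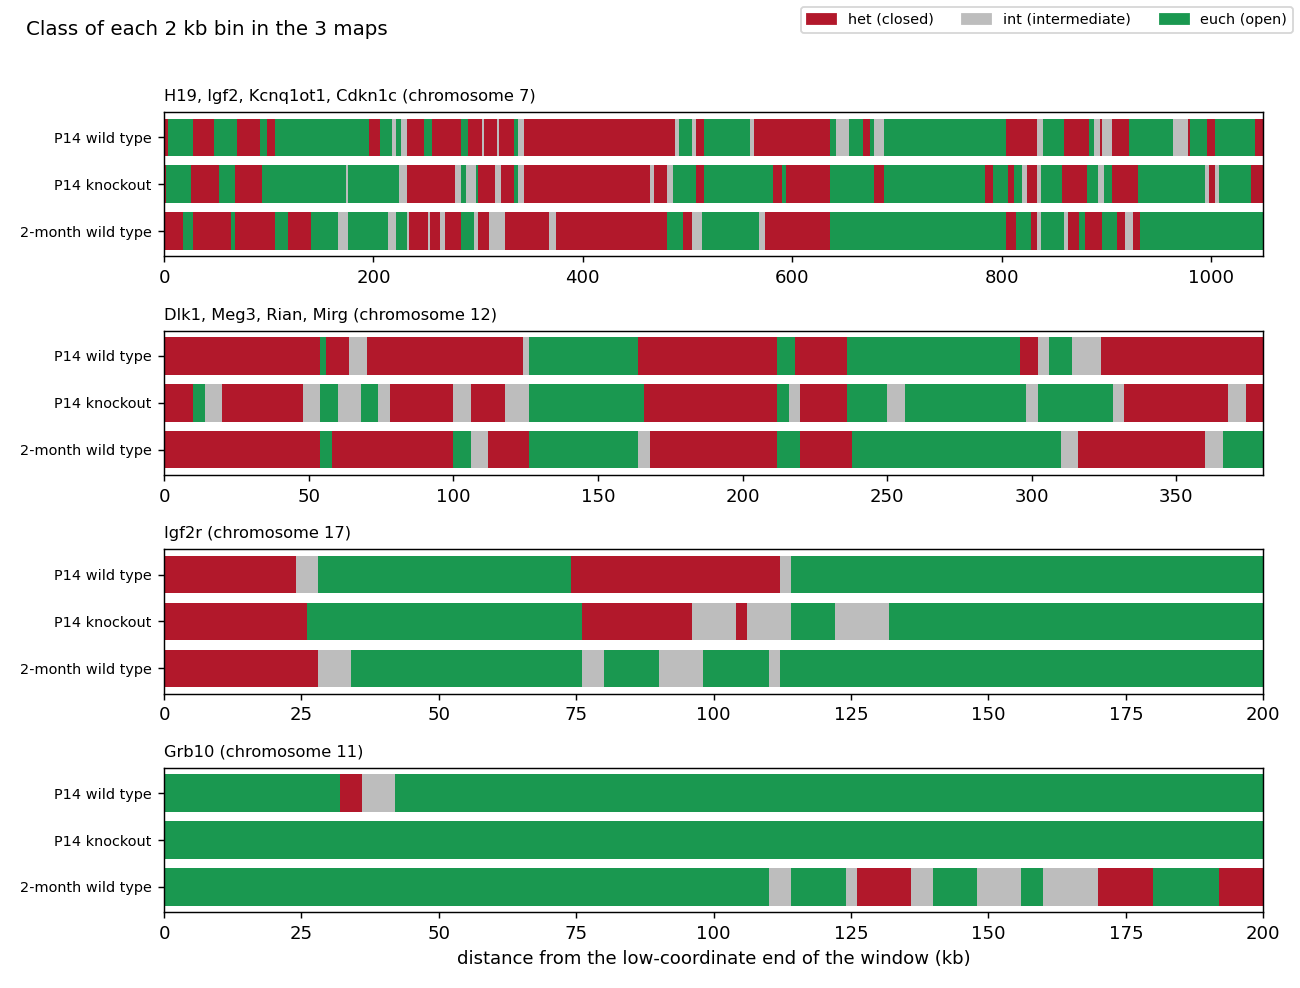
Class of every 2 kb bin along the 4 windows (horizontal axis, kb from the low-coordinate end; each panel has its own scale) in the 3 maps, each row 1 pooled map. On chromosome 7 the first 150 kb hold 96 kb of euch in both P14 maps and 36 kb at 2 months, and in the Grb10 panel het appears at the high end at 2 months only.

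The H19 end held more euch than het at P14 and far more het than euch at 2 months. In its first 150 kb (chr7:149700001-149850000), 96 kb were euch in P14 wild type, 96 kb in the knockout and 36 kb at 2 months. Het covered 54, 54 and 114 kb in the same order, and no bin was int in any map. The score was 0.28 in both P14 maps and -0.52 at 2 months. In its consecutive pieces of 50 kb the score was 0.04, 0.04 and 0.76 in P14 wild type and -0.04, -0.12 and 1.0 in the knockout. The excess of euch at P14 thus lay mostly in the third piece, and the pieces before it were near balance. Of its bins, 40.0% were more closed at 2 months and none was more open, against 13.7% and 13.6% of autosomal bins. In the knockout 6.67% were more open and 6.67% more closed, both below the autosomal 12.1% and 12.5%. This split of the window was chosen after its profile had been seen. By pieces of 50 kb, the difference of score with age was -0.64, -0.88 and -0.88 in the first 3 pieces, and 5.84% of all 47871 autosomal pieces had a difference of -0.88 or below.

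The longest stretch called more closed at 2 months anywhere in the window lay at this end. It was chr7:149818001-149840000, 22 kb that were all euch in both P14 maps and all het at 2 months. The second was chr7:149748001-149764000, 16 kb of euch in P14 wild type and het at 2 months, of which 12 kb were euch in the knockout. After it came chr7:149704001-149718000, with 14 kb of euch in both P14 maps and het at 2 months. The 3 longest stretches of this kind in the window thus all lay at the H19 end. Since that end was set apart after the profile had been seen, this is no separate support. Further in, the fourth piece differed little, with 0.84 in P14 wild type, 0.96 in the knockout and 0.80 at 2 months.

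The remaining 900 kb, from chr7:149850001-150750000, had more euch at 2 months than at P14. Its score was -0.02 in P14 wild type, 0.113 in the knockout and 0.178 at 2 months, with 396, 466 and 488 kb of euch. With age 21.1% of its bins were more open and 6.89% more closed, against 13.6% and 13.7% of autosomal bins. In the knockout 16.4% were more open and 6.0% more closed, against 12.1% and 12.5%. Like the H19 end, it was set apart after the profile had been seen. Towards the Cdkn1c end, euch at 2 months ran without a break for 188 kb, chr7:150632001-150820000, past the end of the window. The longest stretch called more open at 2 months was part of it, chr7:150664001-150680000, 16 kb that were 14 kb int and 2 kb het in P14 wild type and all euch both in the knockout and at 2 months.

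The largest local difference of the knockout lay near the middle of the window. In the piece chr7:150250001-150300000 the score was -0.52 in P14 wild type, 0.44 in the knockout and -0.16 at 2 months. A difference of 0.96 or more was found in 0.932% of autosomal pieces in this comparison. This piece was picked as the highest of the 21, so that share does not tell how unusual it is. It held the longest stretch called more open in the knockout, chr7:150260001-150282000, 22 kb that were 18 kb het and 4 kb int in P14 wild type and all euch in the knockout. At 2 months the same 22 kb were 8 kb het, 6 kb int and 8 kb euch. The piece chr7:150500001-150550000 also had a higher score in the knockout, 0.20 against -0.32, and stood at 0.28 at 2 months. Over the 21 pieces, 13 were higher and 5 lower in the knockout, where 38.9% of autosomal pieces were higher and 39.0% lower. With age 13 were higher and 5 lower as well, where 40.8% and 37.3% were.

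Between these regions lay blocks of the same class in all 3 maps. The longest closed one was chr7:150074001-150164000 (90 kb) and the longest open one chr7:150388001-150484000 (96 kb). In the knockout the open block ended where a het stretch of 8 kb, chr7:150484001-150492000, interrupted what was euch in the other 2 maps. The piece around it, chr7:150450001-150500000, had a score of 1.0 in both wild-type maps and 0.68 in the knockout, the lowest difference of the 21 pieces in this comparison.

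**Figure D4:**
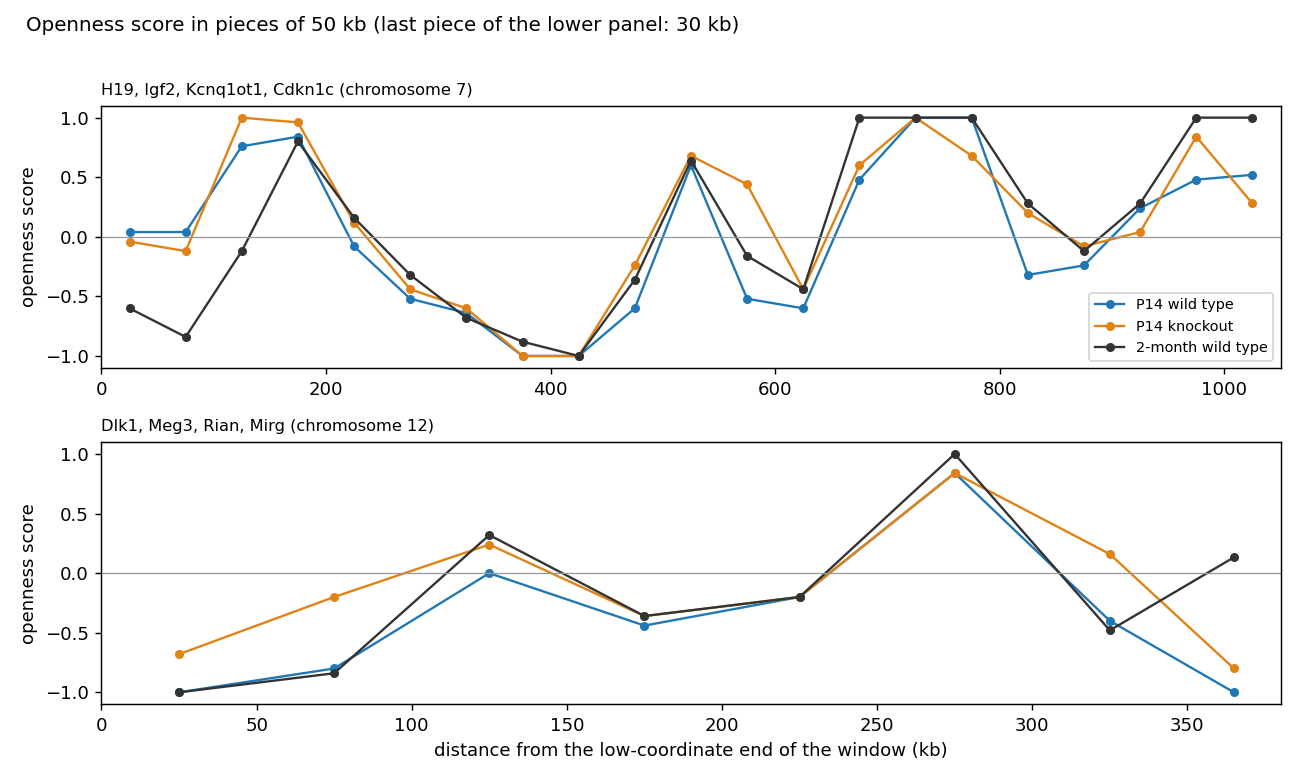
Openness score (vertical axis, from -1 closed to 1 open) in consecutive pieces of 50 kb along the chromosome 7 and chromosome 12 windows (horizontal axis, kb from the low-coordinate end), 1 line for each pooled map. The 2-month line is below both P14 lines in the first 3 pieces of chromosome 7, and the knockout line is never below the P14 wild type on chromosome 12.

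The Dlk1, Meg3, Rian and Mirg window was the most closed of the 4 in each map and had the largest difference of score in the knockout. RefSeq places Dlk1 at the low end, followed by Meg3, Rtl1, Rian and Mirg. Het covered 244 kb in P14 wild type, 176 kb in the knockout and 216 kb at 2 months. Euch covered 114, 142 and 142 kb, and int covered 22, 62 and 22 kb. The knockout map thus had the least het of the 3 maps and the most int. The score was -0.342, -0.089 and -0.195, and 9.66% of autosomal stretches of this length had a knockout difference as high as 0.253 or higher.

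Of its 190 bins, 42 (22.1%) were more open in the knockout and 4 (2.11%) more closed, against 12.1% and 12.5% of autosomal bins. In P14 wild type 64.2% of its bins were het already, against 45.4% of autosomal bins, and could not be called more closed. With age 25 (13.2%) were more open, which is near the autosomal 13.6%, and 11 (5.79%) were more closed, against 13.7%. Most of the het bins that left the class in the knockout became int: of 122 het bins of the P14 wild type, 88 (72.1%) were het, 24 (19.7%) int and 10 (8.2%) euch there. Of the autosomal het bins, 80.6% were het, 8.35% int and 11% euch in the knockout. At 2 months 99 (81.1%) of the 122 bins were het, 8 (6.56%) int and 15 (12.3%) euch, near the autosomal 77.7%, 8.07% and 14.2%. Of the 57 euch bins of the window, 53 (93.0%) were euch and 4 int in the knockout, where 79.9% of autosomal euch bins were euch. At 2 months 54 (94.7%) were euch, 2 int and 1 het, where 77.3% of autosomal euch bins were euch.

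Of the 8 pieces of this window, 6 had a higher score in the knockout, none a lower one and 2 the same. Of autosomal pieces, 38.9% were higher and 39.0% lower. The first and last pieces were at -1.0 in P14 wild type and so could not be lower. The largest differences lay towards both ends. At the Dlk1 end, the score of the first 50 kb was -1.0 in both wild-type maps and -0.68 in the knockout. The next piece, chr12:110670001-110720000, had -0.80 in P14 wild type, -0.20 in the knockout and -0.84 at 2 months. A knockout difference of 0.60 or more was found in 5.23% of autosomal pieces, but this piece was picked as the highest of the 8. At the Dlk1 end the stretches chr12:110630001-110640000 and chr12:110688001-110698000, 10 kb each, were partly int and partly euch in the knockout and wholly het at 2 months. Towards the Mirg end, chr12:110934001-110952000 was the longest stretch called more open in the knockout. Its 18 kb were 8 kb het and 10 kb int in P14 wild type, 4 kb int and 14 kb euch in the knockout, and 16 kb het and 2 kb int at 2 months.

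The longest blocks of 1 class in all 3 maps lay in the middle of the window. There were 2 longer open blocks, chr12:110746001-110784000 (38 kb) and chr12:110876001-110916000 (40 kb), on either side of a closed block, chr12:110788001-110832000 (44 kb). In the last 30 kb, chr12:110970001-111000000, the 2-month map differed: the score was -1.0 in P14 wild type, -0.80 in the knockout and 0.133 at 2 months. This end adjoins a stretch that was far more open at 2 months. In the 380 kb beyond it the score was -0.305 in P14 wild type, 0.10 in the knockout and 0.547 at 2 months.

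The Igf2r window was mostly open and had more euch at 2 months than at P14. RefSeq gives its transcription as towards low coordinates. Euch covered 132 kb in P14 wild type, 126 kb in the knockout and 152 kb at 2 months. Of het there were 62, 48 and 28 kb. Of its 100 bins, 20 were more open at 2 months and 5 more closed, against 13.6% and 13.7% of autosomal bins. In the knockout 9 were more open and 6 more closed, both below the autosomal shares of 12.1% and 12.5%. The score was 0.35, 0.39 and 0.62, and 23.2% of autosomal stretches of 200 kb had an age difference of 0.27 or more. With the window widened by 50 kb on both sides the difference was 0.18.

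All 20 bins more open at 2 months lay in 1 stretch, around the longest het domain of the window in P14 wild type, chr17:12874001-12912000 (38 kb). The stretch chr17:12874001-12914000, that domain and 2 kb of int beside it, was 26 kb euch and 14 kb int at 2 months, with no het. In the knockout it was 22 kb het, 16 kb int and 2 kb euch, so there it was mainly het or int. Beside it lay euch in all 3 maps, 40 kb on the low side (chr17:12834001-12874000) and 8 kb on the high side (chr17:12914001-12922000). The next 10 kb, chr17:12922001-12932000, were int in the knockout and euch in both wild-type maps, and a block of 68 kb that was euch in all 3 maps followed, chr17:12932001-13000000. The low end, chr17:12800001-12824000, was het in all 3 maps.

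The Grb10 window was the most open of the 4 at P14 and the only window with a lower score at 2 months. RefSeq lists Grb10 between Ddc and Cobl, with transcription towards low coordinates. Euch covered 190 kb in P14 wild type, all 200 kb in the knockout and 144 kb at 2 months. The score was 0.93, 1.0 and 0.58, and the difference with age was -0.35, or -0.207 with the window widened by 50 kb on both sides. The knockout map was open throughout in 2.28% of autosomal stretches of 200 kb, and also here, inside a euch domain of 300 kb, chr11:11688001-11988000.

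All 28 bins that were more closed at 2 months, 28.0% against 13.7% of autosomal bins, lay in the upper 100 kb of this window. The domain that was euch in P14 wild type, chr11:11822001-11980000 (158 kb), was broken at 2 months from position 11890001 onwards. The longest of these stretches were chr11:11940001-11960000 (20 kb) and chr11:11904001-11920000 (16 kb), each with 10 kb of het at 2 months, and all of both was euch in the knockout. In the last 50 kb the score was 1.0 in both P14 maps and -0.04 at 2 months. A difference with age of -1.04 or below was found in 3.58% of autosomal pieces, but this piece was picked as the lowest of 4. The lower 100 kb held the only stretch called more open, chr11:11812001-11822000, 10 kb that were 4 kb het and 6 kb int in P14 wild type and euch in both other maps. In P14 wild type 95 of the 100 bins were euch, so at most 5 could be called more open in another map. On all autosomes 42.7% of bins were euch, so a larger share of this window could be called more closed. Of its 95 euch bins, 70.5% were euch at 2 months, 14.7% int and 14.7% het. The autosomal euch bins were 77.3% euch, 6.54% int and 16.1% het, so the share that became het was near the autosomal one.

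Some of these differences were shared with the neighbourhood and others were not. Beyond the Cdkn1c end, the next 1050 kb had a score of -0.394 in P14 wild type, -0.185 in the knockout and 0.52 at 2 months. On the H19 side the adjoining 1050 kb had -0.463, -0.286 and -0.253. The lower score at 2 months of the first 150 kb of the window thus did not extend over this flank as a whole. The longest het domain of the window at 2 months, chr7:149606001-149718000 (112 kb), nevertheless ran from this flank into the window. The flanks of Igf2r were more open at 2 months, by 0.18 on the low side and 0.16 on the high side. Those of Grb10 differed with age by -0.10 and 0.04, against -0.35 in the window. The high flank of Grb10 had 25.0% of bins more open at 2 months and 23.0% more closed, against 13.6% and 13.7% of autosomal bins. The longest het domain of the Grb10 window at 2 months, chr11:11972001-11986000, ran past the window into this flank. For Dlk1-Mirg, the knockout difference was -0.079 in the low flank and 0.405 in the high flank, against 0.253 in the window. On chromosome 7 it was 0.177 and 0.21, against 0.114. It was 0.12 and 0.06 for Igf2r, against 0.04, and -0.06 and 0.29 for Grb10, against 0.07. A higher score in the knockout was thus not particular to the windows.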

How the data were processed

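Per the submitters' processing notes, bcl2fastq 2.19.0.316, STAR 2.4.2a and bedtools were used and the build was mm9. The program that called domains and its thresholds are not given in the sources used here. The authors deposited 9 lists of intervals with a class letter, 1 per class and group, and no signal. Per the labels' descriptions each list belongs to all samples of its group, except that 1 of the 5 samples at 2 months does not name the euch list, so reading each map as a pool is an inference. Lists were read into bins of 2 kb with Python 3.11.15, NumPy 2.4.6, SciPy 1.17.1 and pandas 2.3.3, and figures drawn with Matplotlib 3.10.9. All bins of the autosomes had a class. Windows came from the rule as given. Stretches with the same length as a window, and pieces of 50 kb, were cut from each chromosome start and left out where 50% or more of their bins were int in all 3 maps. Named stretches are the 3 longest per direction and window, the longest domains and the longest blocks of 1 class in all maps; pieces of 50 kb, and the first 150 kb on chromosome 7, were singled out after their values were seen. No p-value was computed. Counting was tested on simulated data. Members and lists were chosen with earlier results of these data known. The lists of other imprinted genes, of the Igf axis and of cell type markers were not analysed here because they need mm9 gene positions.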

Additional observations from a re-analysis of the deposited data

How the results depend on the processing

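No paired analysis was possible because there is 1 map per group and no values per sample, and no sample could be left out for the same reason. The sign of every difference of score, 4 windows in 2 comparisons, was the same under all 5 alternatives (windows widened by 50 kb or narrowed by 20 kb, bins at a P14 wild-type domain edge, domains under 5 kb or bins int in all maps left out), but sizes were less stable. With age the difference was 0.065 instead of 0.147 for Dlk1-Mirg with windows narrowed, -0.207 instead of -0.35 for Grb10, 0.18 instead of 0.27 for Igf2r and 0.096 instead of 0.055 for H19-Cdkn1c with windows widened, and 0.026 for H19-Cdkn1c without bins at an edge. In the knockout the Igf2r difference of 0.04 was 0.013 widened and 0.011 without bins at an edge, and the Grb10 difference of 0.07 was 0.011 without bins at an edge and 0.031 without domains under 5 kb. Without bins at an edge, the share of bins with another class was 24.3% instead of 29.7% with age and 14.8% instead of 21.1% in the knockout for H19-Cdkn1c, and 1.08% instead of 5.00% in the knockout for Grb10, while the autosomal shares were 20.0% and 17.3%. Counting only moves between het and euch gave, with age, 15.8% for H19-Cdkn1c, 8.42% for Dlk1-Mirg, 12% for Igf2r and 16.0% for Grb10, and in the knockout 10.1% for H19-Cdkn1c, 5.26% for Dlk1-Mirg and 1.00% for Igf2r. On the same count Grb10 had 2.0% in the knockout. The autosomal shares on this count, added after seeing the data, were 13.3% with age and 10.5% in the knockout. H19-Cdkn1c, Igf2r and Grb10 with age and H19-Cdkn1c in the knockout were near them, and the others were below. With windows widened, the share of Grb10 bins with any other class in the knockout was 13.3%, and the Grb10 scores were 0.747 in P14 wild type and 0.84 in the knockout. The Igf2r score at 2 months was 0.427 widened and 0.775 narrowed. The H19-Cdkn1c score in P14 wild type was -0.024 widened, so its side of 0 is not settled. These changes follow from which bins are counted. The remaining 140 of 158 values stayed within a 95% interval of the main value, which treats bins as independent, or, for the autosomal shares, within 1.5 times of it. Depth is unknown, and the mix of sexes differed between groups; its part in the differences was not tested.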
